A study of Mus musculus with 6 samples.

Results

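ATP synthase, the enzyme of the inner mitochondrial membrane that makes ATP from the proton gradient, was followed through 10 of its genes in brown and white fat of the mouse. They are the 3 genes for the c subunit (Atp5g1, Atp5g2 and Atp5g3), 6 genes for other subunits (Atp5a1, Atp5b, Atp5c1, Atp5d, Atp5f1 and Atp5o) and the gene of the inhibitor protein (Atpif1). Members were taken by their symbol in the platform annotation, under an old or a current name, which gave 21 of 45037 probe sets and 10 of 18193 named genes. Brown adipose tissue from between the shoulder blades and white adipose tissue from the epididymal pad came from male C57BL/6 mice aged 10 to 12 weeks, untreated and at ambient temperature, and each tissue was hybridised to 3 Affymetrix mouse arrays, 1 per sample. The labels name no transgene, deletion or agent in either tissue. Each kind of fat came from a single place in the body, so kind and place cannot be told apart. Nothing in the labels says whether the samples of a tissue came from separate mice, so p-values measure only the spread between these samples. The series-wide value table runs the other way between the tissues, and the directions given here are those of the files of the single arrays, in which Ucp1, the uncoupling protein of brown fat, is high in the samples labelled brown.

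The enzyme has a catalytic head (F1) on the matrix side and a membrane part (Fo) in which a ring of c subunits turns as protons pass. The 3 c subunit genes encode the same mature protein behind different mitochondrial import sequences. Brown fat of rodents is known for mitochondria rich in respiratory chain and uncoupling protein but poor in ATP synthase, and low expression of the P1 isoform gene, Atp5g1, is known from that tissue. The inhibitor protein binds the F1 head and blocks ATP hydrolysis when the proton gradient falls.

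The stretches of DNA just before 3 of the genes are shown because these genes moved apart in the arrays: Atp5g1 was higher in white fat, Atp5g2, which encodes the same mature protein, was higher in brown fat, and Atp5b, the catalytic subunit, was higher in brown fat. Each is the 187 bases before the outermost annotated start, 5′ to 3′ on the gene's strand, from RefSeq (GRCm38.p6). Capitals mark matches to the motifs searched on both strands: CCAAT (the CCAAT box), GGGCGG (the GC box), CACGTG (the E-box), AAGGTCA (a nuclear receptor element) and the NRF1 motif.
Atp5g1, chr11:96075695-96075881 (- strand): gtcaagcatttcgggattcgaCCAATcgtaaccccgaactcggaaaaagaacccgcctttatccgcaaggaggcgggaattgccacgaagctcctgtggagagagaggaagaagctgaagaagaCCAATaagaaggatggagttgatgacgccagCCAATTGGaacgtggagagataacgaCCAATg
Atp5g2, chr15:102671048-102671234 (- strand): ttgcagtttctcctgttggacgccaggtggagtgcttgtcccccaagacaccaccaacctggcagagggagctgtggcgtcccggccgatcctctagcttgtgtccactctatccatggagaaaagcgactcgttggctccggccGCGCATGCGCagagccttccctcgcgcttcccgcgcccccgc
Atp5b, chr10:128083120-128083306 (+ strand): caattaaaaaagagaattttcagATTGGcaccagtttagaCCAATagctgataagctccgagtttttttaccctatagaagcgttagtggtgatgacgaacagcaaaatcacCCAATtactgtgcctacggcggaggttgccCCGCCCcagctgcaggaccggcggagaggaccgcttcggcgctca
The Atp5g1 stretch held 5 matches to CCAAT, counting both strands of the overlapping pair, and no match to the other motifs. At least 1 such match was found in 29.3% of the 22286 promoter stretches of the same length, and at least 5 in 0.0942%. The Atp5b stretch held 3 matches to CCAAT and 1 to GGGCGG, the latter present in 27.1% of all stretches. The Atp5g2 stretch held the NRF1 motif, found in 0.66% of all stretches, and was richer in G and C (64.2%) than that of Atp5g1 (50.8%) or Atp5b (50.3%). These stretches stop at the outermost annotated start, and none of the 5 members searched in this way, Atp5f1 and Atp5o included, held CACGTG (4.71% of all stretches) or AAGGTCA (2.99%). The stretches of Atp5c1 and Atpif1 ran into a neighbouring gene, and the windows of Atp5g3 and Atp5d lie within the annotated gene, so these 4 were left out. Atp5a1 was not searched.

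The absence of CACGTG did not hold in the longer RefSeq windows of 300 bases, which reach past a start. This search was added after the shorter one and covered 9 of the 10 members, again without Atp5a1. There CACGTG occurred in 4 of the 9 members, Atp5g1, Atp5g3, Atp5f1 and Atpif1, against 7.15% of all 32851 windows. The windows of Atp5g1 and of Atp5b held 5 matches to CCAAT each, and the share of all windows with that many was not computed. At least 1 match to CCAAT occurred in 4 of the 9 members and in 37.4% of all windows. Members were counted by any of their windows, and Atp5c1, among those 4, and Atp5d have 2 each, while the shares are of single windows. AAGGTCA was in the windows of Atp5g3 and Atpif1, against 4.72% of all windows. The motif matches are descriptions of letters, and whether a factor binds there was not tested.

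Signals are quantile-normalised intensities on a linear scale, differences are log2 differences (brown minus white) with their SE, and a gene is called where limma's adjusted p over 10264 tested genes was at most 0.05. Each gene is represented by its probe set with the highest mean log2 signal, and a present, marginal or absent call comes with each signal. Of the 10 members, all 10 were tested, 7 were called higher in brown and 3 higher in white. Among these 3, Atp5g3 lost its call with centring on the tested probe sets. Of all tested genes 28.2% were called higher in brown and 32.7% higher in white, so 61% differed in 1 direction or the other. In all 10 members every array of 1 tissue lay above every array of the other, which was so for 67.3% of all tested genes. Because so many genes differed, the sizes of the differences say more than the calls. In bulk tissue, fewer cells of a type and less RNA per cell cannot be told apart.

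**Figure D1:**
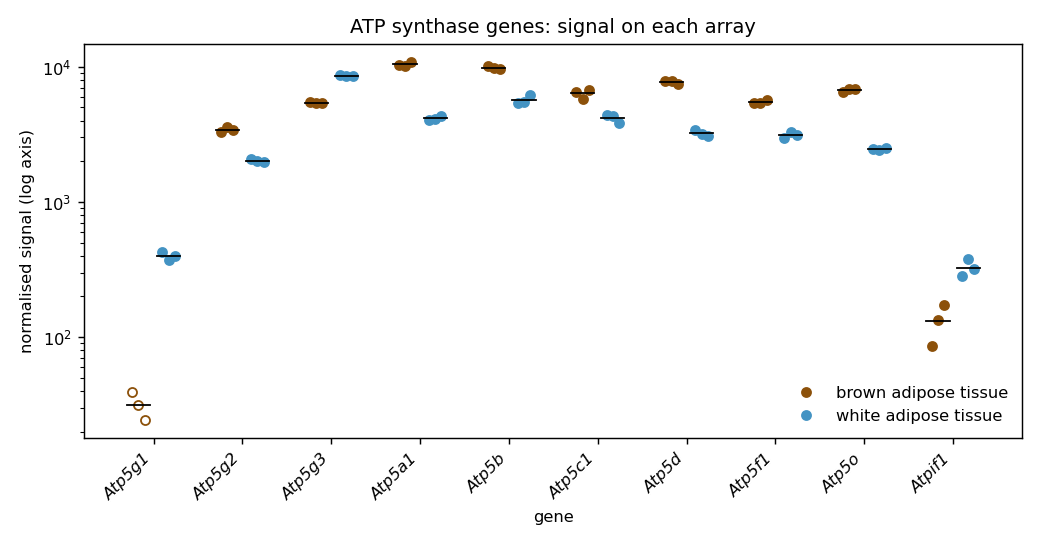
Normalised signal (log axis) of each of the 10 members on each array, by gene; points are arrays, brown for brown fat and blue for white fat, open points are arrays of a tissue in which the gene was called absent on all arrays, and bars are arithmetic means of 3 arrays. Atp5g1, Atpif1 and, with this quantile normalisation but not with centring on the tested probe sets, Atp5g3 lie higher in white fat and the other 7 genes higher in brown fat; levels of different genes cannot be compared because each has its own probes.

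The c subunit genes went in opposite directions. Atp5g1, the P1 isoform gene, had signals of 39.3, 31.6 and 24.3 on the brown arrays and 423, 375 and 397 on the white arrays. It was called absent on all 3 brown arrays and present on all 3 white arrays. The means were 31.7 ± 7.51 in brown and 398 ± 24.3 in white (SD, n = 3), a ratio of geometric means of at least 12.8-fold towards white (limma adjusted p = 1.19e-07). This is a lower bound, since the brown signals were not distinguished from background. The bound equals the measured ratio, a log2 difference of -3.68 (SE 0.191). A called difference of at least 2-fold towards white was found for 14.4% of all tested genes, and towards brown for 10.9%. A second probe set for Atp5g1 was called absent on all 6 arrays and was not tested, so the result rests on 1 probe set.

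Atp5g2, the P2 isoform gene, had 3310.2, 3574 and 3381 in brown and 2061, 1999 and 1987 in white, and was called present on every array. Every brown array lay above every white one. Its means of 3422 ± 136 and 2015 ± 40.1 (SD, n = 3) differed by 0.76 (SE 0.0528, limma adjusted p = 9.41e-07), or 1.70-fold. Its other 2 probe sets were near background, with single signals from 10.3 to 30.7, and were not tested.

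Atp5g3, the P3 isoform gene, is read by 1 probe set, which gave 5447, 5396 and 5409 in brown and 8627, 8593 and 8514 in white. The arrays of each tissue lay close together and all white arrays were above all brown ones. The means were 5417 ± 26.3 and 8578 ± 58.0 (SD, n = 3), a difference of -0.66 (SE 0.0373, limma adjusted p = 2.09e-07), but it was -0.12 with each array centred on its median and 0.02 (limma adjusted p = 0.702) with centring on the tested probe sets. Without further scaling of the deposited signals it was -0.57, and with the spike-in controls as the reference -0.56. The median gene itself stood at -0.50 in the deposited signals, and relative to that gene Atp5g3 was at -0.07, against -0.62 after quantile normalisation. The direction of Atp5g3 between the tissues therefore rests on the scaling, and its distance from the other subunits does not, as shown further on.

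The catalytic head was higher in brown. Atp5a1, the alpha subunit of the F1 head, had 10282, 10206 and 10853 in brown and 4029, 4077 and 4347 in white, a difference of 1.33 (SE 0.0469, limma adjusted p = 8.54e-09) or 2.52-fold. The highest normalised signal of any probe set was 14151, so Atp5a1 in brown lay near the top of the scale. Atp5b, the beta subunit that carries the catalytic sites, had 10083, 9813 and 9599.9 in brown and 5409, 5506 and 6169.8 in white. Its tissues were further apart than its arrays within a tissue, with means of 9832 ± 242 and 5695 ± 414 (SD, n = 3) and a difference of 0.79 (SE 0.0544, limma adjusted p = 9.15e-07).

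Both members of the central stalk were called higher in brown on their brightest probe set. Atp5c1, the gamma subunit that turns within the head, had the smallest difference of the 6 other subunits, with 6556, 5768 and 6768 in brown and 4399, 4293 and 3848 in white (0.61, SE 0.0716, limma adjusted p = 4.68e-05). This value comes from a probe set of a kind that can match several transcripts (_s_at or _x_at). The brightest probe sets of Atp5d, Atp5f1, Atp5e, Atp5j2, Atp5k and Slc25a5 are of these kinds as well. The other Atp5c1 probe set was dim, at 61.7 ± 7.47 and 80.0 ± 7.31 (SD, n = 3), and went the other way without being called (-0.38, limma adjusted p = 0.121 over all probe sets). The mean of both Atp5c1 probe sets differed by 0.11 (limma adjusted p = 0.186), so the call for Atp5c1 depends on which is used. Atp5d, the delta subunit of the central stalk, had 7891, 7807 and 7486 in brown and 3388, 3169 and 3098 in white (1.26, SE 0.0495, limma adjusted p = 1.70e-08).

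In the peripheral stalk, which holds the head still, Atp5o showed the largest difference towards brown of the 10 members on the brightest probe set of each gene. With the mean of all tested probe sets Atp5d (1.71) lay above Atp5o (1.63), and without the _s_at and _x_at probe sets Atp5f1 (1.80) lay above it (1.45). Atp5o encodes the subunit that joins the stalk to the head and had 6498, 6805 and 6805 in brown and 2459, 2415 and 2505 in white (1.45, SE 0.0456, limma adjusted p = 4.19e-09), or 2.72-fold. Atp5f1, the b subunit of the same stalk, had 5346, 5422 and 5647 in brown and 2978, 3275 and 3141 in white (0.81, SE 0.0515, limma adjusted p = 5.22e-07). Neither stalk gene overlapped between the tissues.

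The inhibitor gene went with Atp5g1 rather than with the 6 other subunits in direction. Atpif1 had 86.0, 134 and 174 in brown and 282, 381 and 317 in white, present on all 6 arrays. The brown arrays spread more in proportion (33.7% of their mean, against 15.3% in white), and the highest brown array stayed below the lowest white one. Means of 131 ± 44.2 and 327 ± 50.1 (SD, n = 3) gave a difference of -1.36 (SE 0.234, limma adjusted p = 0.000624), or 2.57-fold towards white. Its other 2 probe sets were each called present on at most 2 arrays and were not tested. On both the arrays of the tissues overlapped, with differences of -0.11 and 0.64. The result for Atpif1 therefore rests on the tested probe set alone.

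Because each array holds all these genes, their balance can be followed within an array, where a shift of the whole array cancels. The log2 signal of each c subunit gene was taken relative to the mean log2 signal of the 6 other subunits on the same array. Only the change of this quantity between tissues has a meaning, because its level depends on the probes. Relative to the 6 other subunits, Atp5g1 was lower in brown by a log2 difference of -4.72, Atp5g3 by -1.70 and Atp5g2 by -0.28. With the deposited signals the same values were -5.22 for Atp5g1, -1.66 for Atp5g3 and -0.40 for Atp5g2, and they are the same for any scaling that shifts a whole array. The value for Atp5g1 rests on brown signals called absent, and is a lower bound in size. Atpif1 was lower in brown relative to the 6 other subunits by -2.40, or -2.97 with the deposited signals. In all 4 genes the 3 brown arrays lay below the 3 white arrays, also for Atp5g2, whose own signal was higher in brown. The mean of the 3 c subunit genes minus the mean of the 7 other members, the inhibitor included, was -2.16, -2.30 and -2.55 on the brown arrays and -0.37, -0.51 and -0.46 on the white arrays, a difference of -1.89. That value was -0.65 over the 9 members present on all 6 arrays, without Atp5g1. These are descriptions with no test, because the members were chosen with results known.

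**Figure D2:**
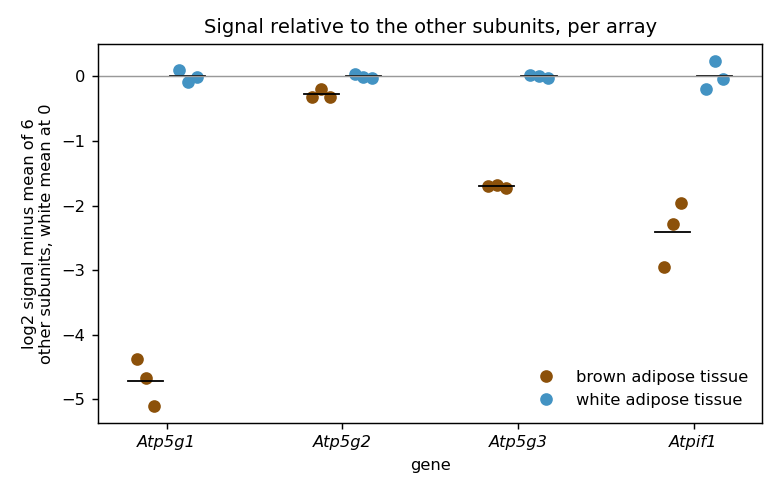
Log2 signal of Atp5g1, Atp5g2, Atp5g3 and Atpif1 minus the mean log2 signal of 6 other subunits on the same array, with the mean of the white arrays set to 0; points are arrays (brown and blue for brown and white fat, 3 each) and bars are means. The brown arrays lie below the white ones for all 4 genes, by -4.72 for Atp5g1 and by -0.28 for Atp5g2.

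The other genes of the enzyme were taken from a list of 20, of which 18 had a probe set under their names and 17 were tested. Of these 17, 14 were called higher in brown, 1 higher in white and 2 were not called, with a median difference of 1.50 against -0.04 for all 10264 genes. Among 9 small or accessory subunits, 8 were called higher in brown. Atp5e, the epsilon subunit of the central stalk, had 3335, 3949 and 3581 in brown and 1193, 1251 and 1301 in white (1.53, limma adjusted p = 5.67e-08). The membrane subunit genes Atp5j2 (1.51), Atp5l (1.50) and Atp5k (1.31), the peripheral stalk gene Atp5h (0.99), and Usmg5 (1.87) and Mp68 (1.56), which encode small proteins attached to the enzyme, were called higher in brown. Atp5s was called at 0.79 after quantile normalisation, but not with the deposited scaling (0.27, limma adjusted p = 0.0966) or with the spike-in controls as the reference (0.27, limma adjusted p = 0.226), which leaves 13 of the 17 higher in brown.

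Atp5j, which encodes coupling factor 6 of the peripheral stalk, was the 1 subunit on that list that was not called. It had 2941, 2931 and 3084 in brown and 3036, 3546 and 2868 in white (-0.07, SE 0.0761, limma adjusted p = 0.44), and the arrays of the tissues overlapped. With each array centred on its median, Atp5j was called higher in brown at 0.35 (limma adjusted p = 0.00129), as were all 17 tested genes of the list.

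All 5 assembly genes on the list were called higher in brown, with a median difference of 1.82. Fmc1, an assembly factor of the F1 head, had the largest, with 1356, 1579 and 1519 in brown and 303, 290.5 and 313 in white (2.29, SE 0.0842, limma adjusted p = 1.11e-08). Atpaf2, a chaperone of the alpha subunit, followed at 2.24 and Atpaf1, the chaperone of the beta subunit, at 1.15. Tmem70 (1.78) and Tmem242 (1.82), both needed to build the c ring into the enzyme, were called higher in brown.

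The carriers that bring the enzyme its ADP and phosphate differed less. Slc25a5, an adenine nucleotide translocase, was called higher in brown at 0.46 (limma adjusted p = 6.45e-05), and its 8 probe sets all went that way. Slc25a4, the translocase of heart and muscle, was not called on its brightest probe set, with 2531, 2898 and 2766 in brown and 2316, 2519.6 and 3189.5 in white (0.04, limma adjusted p = 0.758). White replicate 3 was the highest of these 6 arrays. Without it another Slc25a4 probe set, of the _x_at kind, became the brightest and stood for the gene. On that one Slc25a4 was called higher in brown at 0.68 (limma adjusted p = 8.44e-06), so the call came with a change of probe set. With all arrays, the next 2 probe sets of Slc25a4 gave 0.72 and 0.91. Slc25a3, the phosphate carrier, had 4555, 4333 and 4314 in brown and 5523, 5715 and 5582 in white (-0.35, SE 0.0442, limma adjusted p = 7.47e-05), a direction that turned to 0.19 (limma adjusted p = 0.00787) with median centring. Slc25a31, the translocase of testis, was called absent on all 6 arrays.

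**Figure D3:**
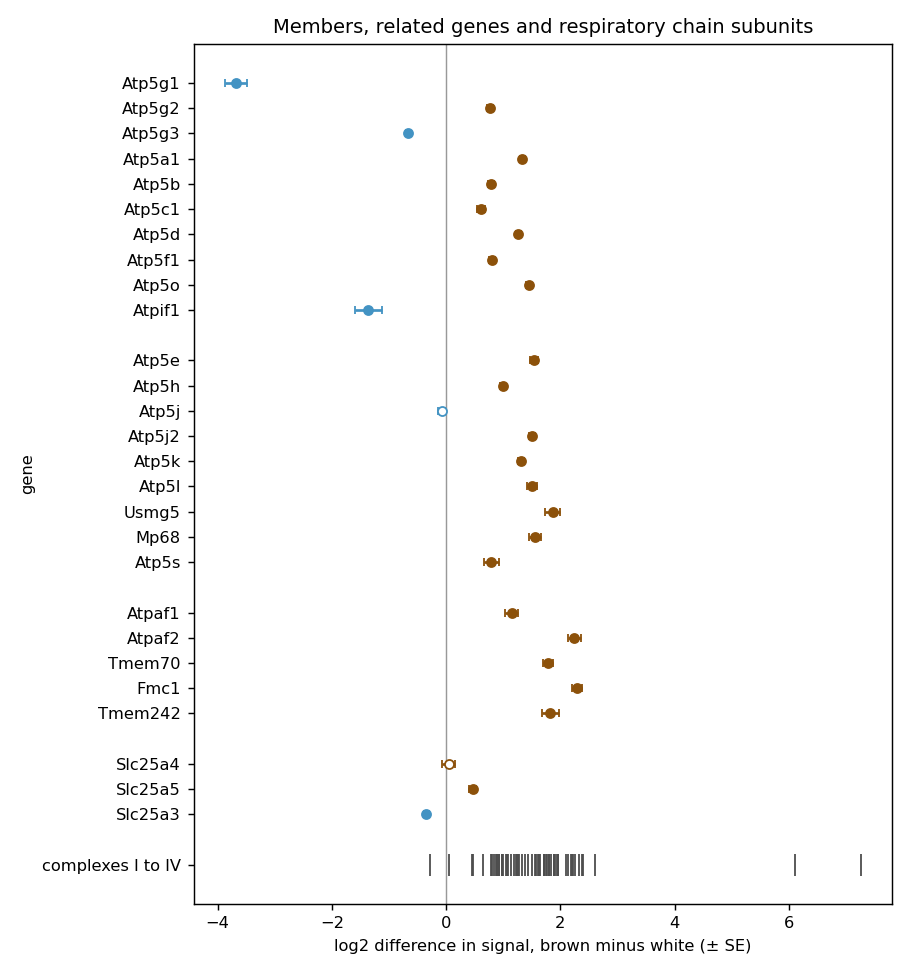
Log2 difference in signal (brown minus white, ± SE) of the 10 members, then of 9 related subunits, 5 assembly factors and 3 carriers, with filled points for genes called at an adjusted p of 0.05 and open points for genes not called; the ticks at the bottom are 60 tested subunits of complexes I to IV. Atp5g1 lies at -3.68, outside the range of the respiratory chain subunits, which runs from -0.28 to 7.26.

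Against the respiratory chain, which builds the gradient that ATP synthase uses, Atp5g1 and Atpif1 were opposite in direction under each of the 5 scalings. Atp5g2 went with most of the chain. Atp5g3 depended on the scaling: with centring on the tested probe sets it was not called (0.02, limma adjusted p = 0.702), and under the others it was lower in brown. Of 60 tested subunits of complexes I to IV, 58 were called higher in brown, 0 higher in white and 2 (Ndufa4l2 at -0.28 and Cox4i2 at 0.05) were not called, with a median of 1.53. The 6 other subunits among the members were all called higher in brown, with differences from 0.61 to 1.45 and a median of 1.04, and together with the 9 tested subunits of the list the median was 1.31. Relative to the mean of complexes I to IV on the same array, the 6 other subunits were lower in brown by -0.56, with 0.678, 0.612 and 0.684 on the brown arrays and 1.213, 1.226 and 1.225 on the white ones. That mean includes Cox7a1 (7.26) and Cox8b (6.12), which lie far above the median of the chain, and the value without them was not computed. The size of such a value also depends on the probe set, as the members with several tested probe sets show.

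Of the 16 tested probe sets of the members, 12 were called higher in brown, 3 higher in white and 1 was not called; of all tested probe sets 24.6% were called higher in brown and 29.9% higher in white. Several dimmer probe sets gave larger differences than the brightest of the same gene. Atp5d had 1.26 on its brighter probe set and 2.15 on the other, with 4599, 4895 and 5123 in brown and 973, 1110.2 and 1232 in white on the latter. Atp5f1 had 0.81 and 1.80, and Atp5o had 1.45 and 1.82. Atp5a1 had 1.33, 1.23 and 1.67 in order of falling signal. On the second probe set Atp5f1 (1.80) lay above Atp5a1 (1.23), the reverse of their order on the first. Among the 5 members called higher in brown with at least 2 tested probe sets, the second gave the larger difference in 3, while this held for 42.4% of 1158 such genes in all and for 35 of the 46 genes at least as bright as the dimmest of the 6 other subunits. The c subunit genes and Atpif1 have 1 tested probe set each, so no such comparison exists for them.

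**Figure D4:**
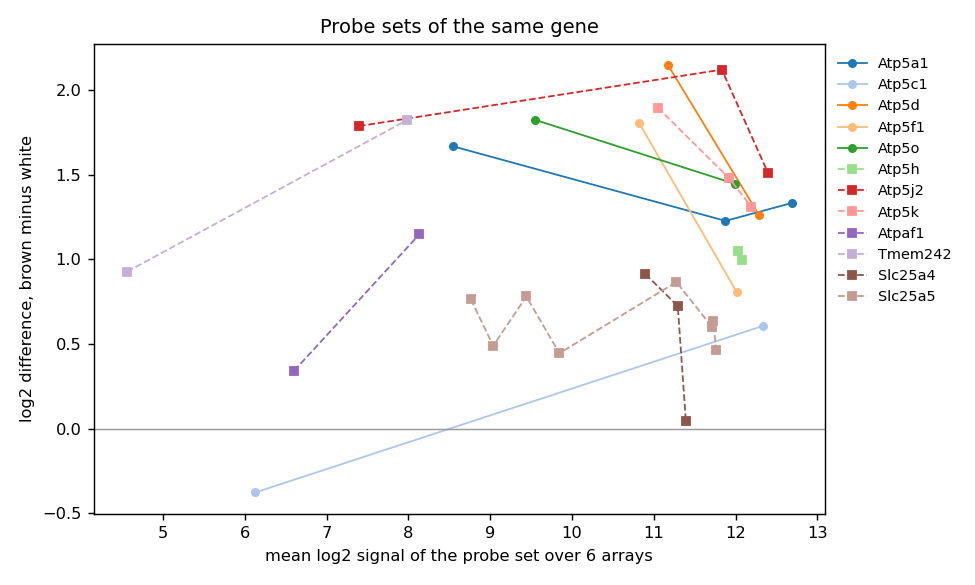
Log2 difference (brown minus white) against mean log2 signal over 6 arrays for each tested probe set of genes with more than 1; lines join the probe sets of a gene, solid for members and dashed for related genes. Atp5d and Atp5f1 rise towards the dimmer probe set, and Atp5c1 falls from 0.61 to -0.38.

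The 4 scalings that shift whole arrays move all genes together by construction, while quantile normalisation moved them by different amounts. Probe sets called present made up 35.6 to 37.5% of a brown array and 45.2 to 45.8% of a white one, and the deposited median signal was 37.6 to 39.4 in brown and 52.1 to 52.5 in white. With median centring the differences of Atp5a1, Atp5b and Atp5o were 1.85, 1.32 and 1.87, and with the deposited scaling they were 1.41, 0.87 and 1.43. Atp5g1 stayed between -4.13 and -3.54 and Atpif1 between -1.88 and -1.29 over the 5 scalings, each called in all of them.

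**Figure D5:**
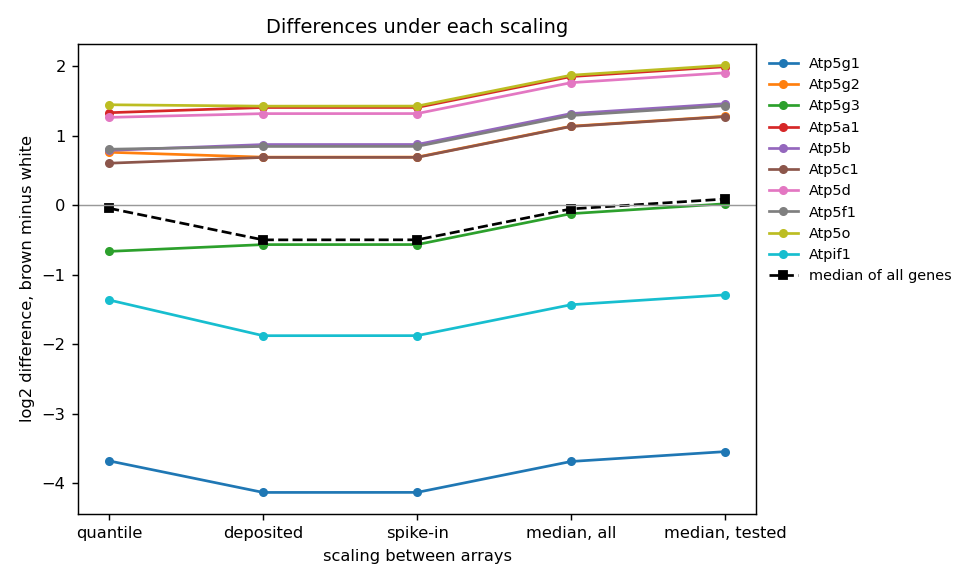
Log2 difference (brown minus white) of each member under 5 scalings between arrays, with the median of all tested genes as black squares; lines join the same gene and have no other meaning. The 7 genes called higher in brown stay above 0 and Atp5g1 and Atpif1 below 0 under each scaling. Under the 4 scalings that shift whole arrays each gene keeps its distance from the median gene by construction, and that of Atp5g3 is -0.07.

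The tissue labels were checked against markers. Ucp1 had signals from 12788 to 13251 in brown and was called absent on all white arrays. All 6 brown adipocyte markers were called higher in brown and all 5 white adipocyte markers higher in white. The white samples also carried more of the markers of other cells. All 7 macrophage markers were called higher in white, with a summed signal of 2381 to 2891 in brown and 16629 to 17447 in white, and all 7 were called present on all brown arrays. All 6 mesothelial markers were called higher in white, with sums of 166 to 223 and 2103 to 2512, and 4 of them, Msln, Upk3b, Upk1b and Krt19, were absent on all brown arrays. Of 5 endothelial markers 3 were called higher in white (sums of 1621 to 1843 and 2340.1 to 2451). Of 8 skeletal muscle markers 3 were tested. Myl1 (1.74) and Casq1 (0.78, limma adjusted p = 0.049) were called higher in brown. Acta1 went the other way without being called (-2.51, limma adjusted p = 0.113), with every white array above every brown one. The sums were 1263 to 1768 in brown and 629 to 775 in white, and Myl1 alone had 845 to 1134 in brown. The 4 measured epididymis markers were not tested for lack of present calls, and the sums were 98.8 to 123 in brown and 49.7 to 72.7 in white. Macrophage and mesothelial markers thus moved in the same direction as Atp5g1, Atpif1 and, after quantile normalisation, Atp5g3, and their part in those differences was not tested. The ratio of the 3′ to the 5′ signal of actin, a sign of RNA quality, was 1.36 to 2.24 in brown and 1.19 to 1.73 in white, and was highest on brown replicate 2. Without brown replicate 2, Atp5g1 differed by -3.69, Atp5g3 by -0.67 and Atpif1 by -1.40, each still called.

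The genes whose pattern over the 6 arrays was most like that of Atp5g1 were named by the smallest Euclidean distance between log2 profiles, each centred on its mean. They were P2ry6, a nucleotide receptor (distance 0.278), Adgrd1, an adhesion receptor (0.323), Retn, the adipose hormone resistin (0.402), Adamts5, a matrix protease (0.419), and C1qc, a complement gene of macrophages (0.428). Retn had 1064, 1005 and 923 in brown and 11755, 12273 and 11755 in white, a difference of -3.58 beside the -3.68 of Atp5g1. The brown signals of Retn were called present, in contrast to those of Atp5g1 and P2ry6, which were absent on all brown arrays. With 2 tissues, likeness over 6 arrays mainly reflects the size of the difference between them.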

How the data were processed

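Total RNA of each sample was extracted with Trizol and an RNeasy column, copied from an oligo-dT primer and labelled by in vitro transcription, per the labels' protocols, so probes near the 3′ end are favoured. The authors deposited, per the file headers, a linear signal intensity, a detection call and its detection p-value for each of 45101 probe sets per array (software and scaling: not given in the sources used here). Control probe sets (64) were left out. The authors' deposited series-wide table of signal intensity, of unknown scale and centring, runs opposite in tissue: log2 differences over tested probe sets correlated at -0.865 with those of the array files (columns named for brown had medians of 64.3, 62.9 and 63.8, those for white 56.7, 56.8 and 55.9). The array files are the main source: all 6 brown and all 5 white adipocyte markers run there as their names say, while Ucp1 is at -8.14 in the table (brown minus white).

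Log2 signals (1 signal of 0 set to 0.1) were quantile-normalised, probe sets present on at least 3 of 6 arrays (19819) entered a linear model (limma 3.58.1, R 4.3.3: lmFit, then eBayes with trend), and p-values were adjusted by Benjamini-Hochberg over 10264 genes, or over all probe sets for further probe sets. Gene names come from the platform annotation (34945 probe sets with 1 symbol, 932 with several, 9160 with none). A lower bound sets the brighter tissue against, per dimmer array, the higher of its own signal and the lowest signal called present. On the brown arrays that lowest signal was 6.79, 7.49 and 9.03, below the signals of Atp5g1, so its bound is the measured ratio. The fit was tested on simulated data. The members and lists were chosen with earlier results of these data known. All 10 members are named, as are the related genes, the 5 genes nearest to Atp5g1, and Ucp1. Atp5j, Slc25a4, Slc25a31, Ndufa4l2, Cox4i2, Cox7a1 and Cox8b were named after their values were seen. So were 4 mesothelial markers and the skeletal muscle markers Myl1, Casq1 and Acta1. The alternatives changed the scaling, an added 64 signal units, the detection filter, the probe set used, the trend, single arrays, a replicate block and the source table. Probe positions were not used here, so hybridisation of transcripts of near-identical genes or pseudogenes to the same probes was not tested.

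Replicate numbers are not stated to mark a mouse. Deviations of same-numbered brown and white arrays correlated at 0.0172, -0.0138 and -0.046, and the arrays were taken as independent; whether a sample pools animals is not stated. The number of arrays limits the precision.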

Additional observations from a re-analysis of the deposited data

How the results depend on the processing

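Over the alternatives run on the array files, the 10 members' differences kept their direction and their side of the threshold in 222 cases; 1 lost its call and 2 turned. Atp5c1 was not called with the mean of its probe sets (0.11, limma adjusted p = 0.186) and turned when _s_at and _x_at probe sets were dropped (-0.38, limma adjusted p = 0.113), which leaves its dim probe set; Atp5d was then not tested. Atp5g3 turned with centring on the tested probe sets (0.022, limma adjusted p = 0.702), chosen after seeing the data. Members higher in brown numbered 5 to 7 and higher in white 2 to 3, except that the series-wide table with its columns as named gave 3 and 7. The c subunit genes minus the other members gave 1.55 there, as its tissues run opposite. The same value was -1.46 with 64 signal units added, which by construction shrinks dim signals (Atp5g1 -2.27), and -0.65 over members present on all 6 arrays. Leaving out 1 array gave -1.98 to -0.62 for it: without a white array Atp5g1 no longer had 3 present calls and was not tested (-0.62, -0.66 and -0.65 without white replicate 1, 2 and 3). With 2 present calls asked for instead, chosen after seeing the data, Atp5g1 was -3.63, -3.73 and -3.67 without these arrays and called each time. The related genes higher in white numbered 0 in place of 1 with median centring over all or over tested probe sets, where Slc25a3 turned; those higher in brown numbered 13 with the deposited and the spike-in scaling, where Atp5s lost its call. Whether same-numbered arrays pair is not known, and with the replicate block the counts were still 7 and 3 and no call changed. Signals called absent limit Atp5g1 in brown.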
